A study of Rattus norvegicus with 6 samples.

Results

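TEC genes are loci that the Ensembl annotation types as "TEC", a holding class for stretches of the genome where cDNA or EST evidence points to a transcript that still awaits experimental proof. Most are short, unspliced models drawn by manual annotators, often with a polyadenylated end, and it is not known for most of them whether they are separate genes, pieces of unspliced or extended RNA from a neighbouring gene, or coding. They carry placeholder symbols (Gm and a number, or a name ending in Rik) and next to nothing is known of their function in the liver or elsewhere. Of 32930 rows in the deposited gene table, 1972 had TEC as their only transcript type, and 1678 of these had a count in at least 1 library. The 138 TEC genes described here were selected on measured values, as those with a mean of at least 50 counts over all 6 libraries. All 138 passed the expression filter and were among the 18455 genes tested. The threshold used both groups together, so a gene that was high in only 1 of them could reach it.

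The libraries came from the liver of 6 animals on a high-fat diet. In the HFD group (3 libraries) the diet was given with the vehicle, 0.5% CMC-Na, and in the HTG group (3 libraries) with the Huazhuo Tiaozhi granule, a herbal preparation. No vehicle is labelled for the HTG group, while in the study's methods for rats the drugs were given in that same vehicle. The series' design text gives 12 weeks of intervention, while the study's methods, written for rats, give that as the length of the diet and a shorter time for the gavage. The labels describe nonalcoholic fatty liver and name rats and a rat genome build, the study's sequencing methods name C57BL/6 J mice, and the rows hold mouse Ensembl gene numbers. They were therefore read as mouse genes, and positions are those of the deposited table, for which no mouse build is named. The treatment label of the HTG libraries spells HCG where their titles have HTG, and a dose is given in the study's methods for rats but not for mice, while the animals' age is not given in the sources used here.

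Total counts lay between 50648778 and 90563477 per library. Low counts peaked at multiples of 4, although these made up only 35.6% of the 37188 entries from 1 to 16. With 4 counts taken as 1 fragment, an assumption, a floor of 3 fragments was 12 counts, or between 0.123 and 0.256 CPM (counts scaled to each library's TMM-normalised total), and covers counting error only. All 5 hepatocyte markers were present, with a summed level of 75333 to 89108 CPM in the HFD libraries and 68204 to 70053 CPM in the HTG libraries, most of it Alb. Of these, Apoa2 was higher (log2 fold change 0.85) and Cps1 lower (-1.62) in the HTG group at an unadjusted p under 0.05. The 6 Kupffer cell markers summed to 585 to 1066 CPM in the HFD group and 411 to 720 CPM in the HTG group, with Adgre1 (-1.53) and Cd5l (-0.86) lower at that p and none higher. In the red cell, stellate cell and biliary lists Alas2, Reln and Epcam were lower and Sox9 was higher, and no leukocyte or endothelium marker passed. Of 6 exocrine pancreas markers 4 were listed: Ctrb1, Pnlip and Prss2 were at or under the floor in every library, and Cela2a, above it in all, had 1.98, 2.85 and 2.35 CPM in the HFD group and 0.899, 1.25 and 4.95 CPM in the HTG group. The 13 mitochondrially encoded mRNAs, all with an unadjusted p under 0.05, summed to 50421 to 60561 CPM in the HFD group and 91941 to 140380 CPM in the HTG group. The 4 nuclear-retained lncRNAs listed summed to 495 to 1060 CPM in the HFD group and 718 to 3305 CPM in the HTG group, with Neat1 (log2 fold change 1.77) and Kcnq1ot1 (0.97) higher, Meg3 lower (-0.95), and Malat1 at 0.47 (adjusted p = 0.472, edgeR's quasi-likelihood test). Whether these shifts in markers and RNA composition had a part in the values below was not tested, and in bulk tissue fewer cells of a type and less RNA per cell cannot be told apart.

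The 138 TEC genes were short and mostly undivided. Their spans ran from 420 to 30942 bp with a median of 2325 bp, against a median of 6171 bp over the 929 lncRNA genes that reached the same mean count. A single transcript was listed for 134 of them, 116 carried a Gm symbol, 18 a Rik name, 2 another symbol and 2 no symbol, and 0 had a GO term. They lay on 19 chromosomes, with 20 on chromosome 5, 19 on chromosome 7 and 18 on chromosome 3. The length behind the deposited FPKM values (fragments scaled by transcript length and library total) could be read back from the ratio of counts to FPKM in 116 TEC genes with at least 0.5 FPKM in a library. Relative to the full span it was within 10% in all 116 (0.974 to 1.02 after scaling to their median), so the length used was that of the whole span, with nothing left out for introns. The same held for 264 of 829 lncRNA genes, whose median ratio was 0.428.

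By position, 45 of the 138 (32.6%) lay fully inside the span of a coding gene on the same strand, 24 (17.4%) fully inside one on the opposite strand, 23 overlapped a coding gene in part, 10 began within 5000 bp after the end of a coding gene on the same strand, and 36 lay elsewhere. The share inside a same-strand coding gene was 50.7% for the 1834 other TEC rows and 3.77% for the 929 lncRNA genes, differences that were not tested. Counting genes of any type, 54 TEC genes overlapped a listed gene on the same strand, 49 only on the opposite strand, and 35 none. In 24 the start lay within 2000 bp of the start of a coding gene that runs the other way, and 17 of those 24 also overlapped a coding gene in part. For the 54 with an overlap on the same strand, the strand of a read cannot tell the TEC gene from the other gene. For the 49 with an overlap only on the opposite strand it could, but use of the strand in counting is not stated in the sources used here. Reads of an overlapping gene thus cannot be told apart from those of the TEC gene, and the values of all but the 35 without overlap are uncertain to that extent. The 35 are free of overlap only. Gm44250, the most abundant TEC gene, is among them and starts 366 bp after a coding gene on the same strand. Whether such a TEC gene holds extended RNA of the gene before it was not tested.

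As a class the TEC genes were faint, and their summed and median levels were higher in every HTG library than in any HFD library. They took 0.0303% to 0.0333% of all counts in the HFD libraries and 0.0369% to 0.0458% in the HTG libraries. The median TEC gene had 1.07, 0.960 and 1.09 CPM in HFD libraries 1, 2 and 3 and 1.26, 1.82 and 1.69 CPM in HTG libraries 1, 2 and 3, so the groups did not overlap and HTG library 1 lay nearest to the HFD group. The summed level was 318, 354 and 295 CPM in the HFD libraries and 372, 424 and 429 CPM in the HTG libraries, a 1.27-fold difference. A single gene, Gm44250, made up 21.5% to 26.3% of that sum in the HFD libraries and 8.61% to 16.4% in the HTG libraries. Without the 5 most abundant TEC genes the sum was 193 to 205 CPM in the HFD group and 238 to 321 CPM in the HTG group, 1.46-fold higher. The 1834 TEC rows outside the selection summed to 101 to 112 CPM in the HFD group and 132 to 183 CPM in the HTG group, 1.52-fold higher, and all lncRNA rows to 6786 to 6948 and 7947 to 12790 CPM. For each of these sums an exact two-sided permutation test over the 6 libraries gave p = 0.1, the smallest value it can give with 3 against 3.

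**Figure D1:**
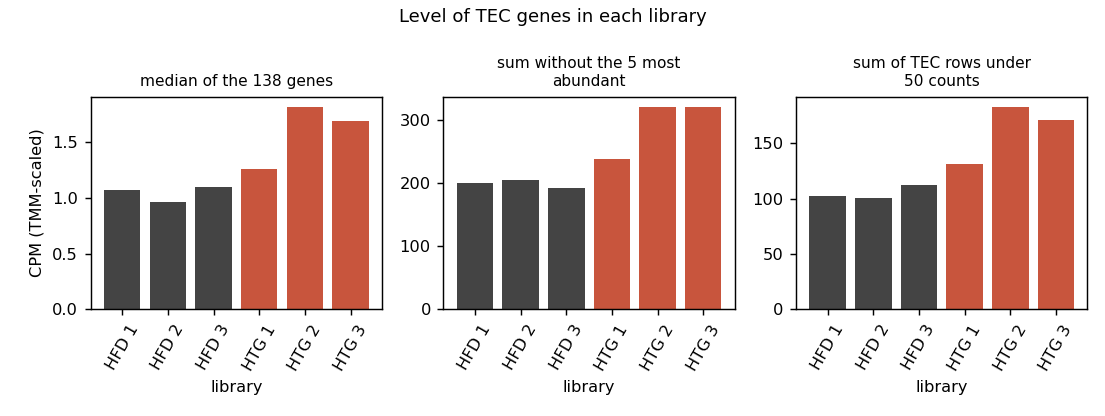
Level of TEC genes in each library, in TMM-scaled CPM, as the median of the 138 genes (left), their sum without the 5 most abundant (middle) and the sum of the 1834 other TEC rows (right). Dark bars are the 3 HFD libraries and red bars the 3 HTG libraries. In each panel every HTG bar is above every HFD bar, and HTG library 1 is the lowest HTG bar, with a median of 1.26 CPM.

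Single libraries did not contribute evenly. The highest of the 6 values of a TEC gene was in HTG library 2 for 50 genes and in HTG library 3 for 42, but in HTG library 1 for 9 and in the HFD libraries for 37 (6, 13 and 18). The lowest value was in HFD library 3 for 59 genes. HTG library 2 also had the most counts and the highest Neat1 level, 2796 CPM.

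In edgeR's quasi-likelihood test, 33 of the 138 TEC genes (23.9%) rose in the HTG group and 5 (3.62%) fell at an unadjusted p under 0.05, which is what "rose" and "fell" mean here. Over all genes tested the shares at that p were 12.3% higher and 12.4% lower, and over those averaging 50 counts or more they were 14.4% and 14.8%. The median log2 fold change (HTG over HFD) of the TEC genes was 0.56, with 115 of 138 above 0, beside 0.03 over all genes tested. After Benjamini-Hochberg adjustment over all genes tested 0 TEC genes remained under 0.05 in that test, as for nearly all genes (0.0108% called). Of the 38 with an unadjusted p under 0.05, 13 had an adjusted p under 0.1, and the lowest was 0.0527. Over all genes an adjusted p under 0.1 was found for 2001 of 18455 tested, and for 1907 of 14370 averaging 50 counts or more. The 13 of 138 TEC genes were thus no larger a share than that background. DESeq2 gave 22 with an adjusted p under 0.05, 19 higher and 3 lower, where it called 6.29% of all genes with an adjusted p higher and 7.55% lower, and limma on FPKM gave 0, with 0.0111% of all genes called. The CPM ranges of the groups did not overlap for 40 TEC genes with higher HTG values and 7 with lower ones, that is 29.0% and 5.07%, against 16.5% and 15.5% of all genes tested and 17.6% and 17.8% of those averaging 50 counts or more. Without HTG library 2, 21 TEC genes were higher and 3 were lower at an unadjusted p under 0.05, beside 8.07% and 8.09% of all genes tested.

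**Figure D2:**
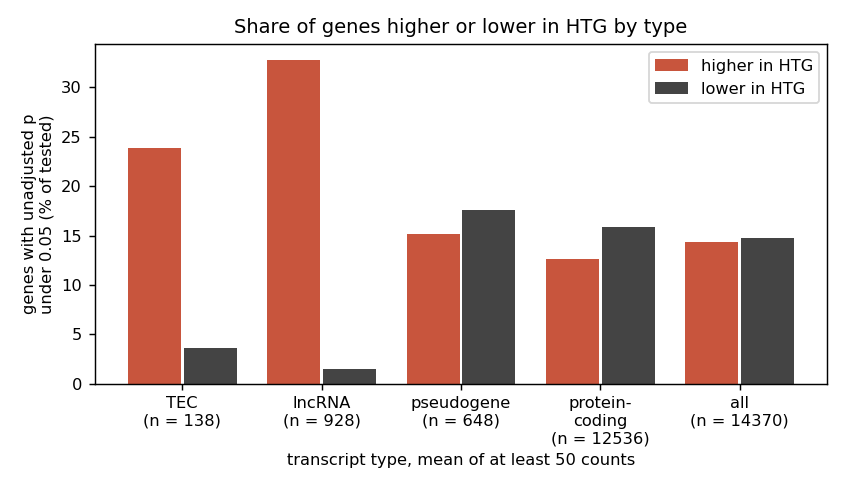
Percent of the genes tested that were higher (red) or lower (dark) in the HTG group at an unadjusted p under 0.05, for TEC, lncRNA, pseudogene, protein-coding and all genes averaging 50 counts or more (n is the number tested). TEC genes, with 23.9% higher and 3.62% lower, stand beside lncRNA genes, with 32.8% and 1.51%, and protein-coding genes, with 12.7% and 15.9%.

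The same shares were taken for other transcript types. Of 928 lncRNA genes tested with that abundance, 32.8% were higher and 1.51% lower, with a median log2 fold change of 0.64. Protein-coding genes had 12.7% higher and 15.9% lower with a median of -0.04, and pseudogenes 15.1% and 17.6% with the same median of -0.04. In both TEC and lncRNA genes far more were higher than lower, while coding genes and pseudogenes had slightly more lower than higher. The difference between the types was not tested.

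Several of the largest rises were in TEC genes that run against a coding gene. Gm43857 (ENSMUSG00000104548, chromosome 3, 152096799 to 152099877, minus strand) overlaps in part Usp33, which encodes a deubiquitinase, on the opposite strand. It had 2.54, 4.02 and 3.79 CPM in HFD libraries 1, 2 and 3 and 11.8, 14.2 and 19.3 CPM in HTG libraries 1, 2 and 3. Every HTG library was thus well above every HFD library. The change was 2.13 on the log2 scale (SE 0.27, adjusted p = 0.0527, edgeR's quasi-likelihood test), a 4.37-fold rise, while Usp33 had 33.2 ± 1.80 and 42.2 ± 4.41 CPM (SD, n = 3 each). The log2 fold change of Usp33 was 0.35 (adjusted p = 0.219, edgeR's quasi-likelihood test), and per length Gm43857 was at 75.9% of Usp33 in mean FPKM.

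Gm48840 (ENSMUSG00000110899, chromosome 9, 44962722 to 44966642, minus strand) overlaps Mpzl2 and Mpzl3, which encode myelin protein zero-like membrane proteins, on the opposite strand, and starts 158 bp from the start of Mpzl3. It had 2.23, 1.33 and 1.36 CPM in the HFD libraries and 7.16, 7.65 and 4.42 CPM in the HTG libraries, so the groups did not overlap. The log2 fold change was 1.96 (SE 0.34, adjusted p = 0.0538, edgeR's quasi-likelihood test), beside -0.12 (adjusted p = 0.830) for Mpzl2. Gm49727 overlaps Cfap298, a gene of cilia assembly, on the opposite strand and rose from 0.650 ± 0.346 to 1.91 ± 0.353 CPM (SD, n = 3 each), with a log2 fold change of 1.56.

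Gm37072 (ENSMUSG00000103680, chromosome 1, 160828579 to 160829415, minus strand) is 837 bp long and lies inside Serpinc1, which runs the other way and encodes antithrombin, a plasma protease inhibitor made by hepatocytes. It had 1.47, 1.32 and 1.55 CPM in the HFD libraries and 4.15, 4.49 and 6.06 CPM in the HTG libraries. The HFD values were tight and all 3 HTG values stood above them. The log2 fold change was 1.76 (SE 0.28, adjusted p = 0.0538, edgeR's quasi-likelihood test). Serpinc1 had 2230 ± 138 and 1896 ± 291 CPM (SD, n = 3 each). The TEC gene was at 1.55% of its mean FPKM, and the per-library log2 ratio of TEC gene to host was 1.98 higher in the HTG group.

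Gm48062, inside Eml5, which encodes a microtubule-associated protein and runs the other way, rose from 1.18 ± 0.0191 to 2.69 ± 0.329 CPM (SD, n = 3 each). Their log2 fold changes were 1.18 for the TEC gene and 0.72 for Eml5 (adjusted p = 0.0657 and 0.154, edgeR's quasi-likelihood test). Here both genes of the pair rose. The shortest TEC gene, Gm45724 (420 bp, chromosome 8, 105777681 to 105778100, minus strand), lies inside Ces3a, a carboxylesterase gene on the plus strand. It had 2.63, 0.855 and 5.07 CPM in the HFD libraries and 8.51, 8.15 and 10.1 CPM in the HTG libraries, so its HFD values varied widely but stayed below the HTG values. On the log2 scale the change was 1.65 (SE 0.53, adjusted p = 0.111, edgeR's quasi-likelihood test), and Ces3a, at 1230 ± 159 and 2133 ± 97.3 CPM (SD, n = 3 each), rose with a log2 fold change of 0.79.

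Among TEC genes with no coding gene over them, Gm43379 (ENSMUSG00000105449, chromosome 3, 135133924 to 135141649, minus strand) had 0.558, 0.375 and 0.432 CPM in the HFD libraries and 1.25, 2.60 and 1.60 CPM in the HTG libraries. All HTG values were higher, with HTG library 2 the highest. The log2 fold change was 1.99 (SE 0.43, adjusted p = 0.0605, edgeR's quasi-likelihood test). Its start is 2261 bp from that of Ube2d3, a ubiquitin-conjugating enzyme gene that runs the other way. Gm37607 rose from 0.746 ± 0.288 to 2.10 ± 0.756 CPM (SD, n = 3 each), with a log2 fold change of 1.49 and an adjusted p of 0.0963 (edgeR's quasi-likelihood test).

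Inside coding genes on the same strand, 9130002K18Rik (ENSMUSG00000115837, chromosome 15, 35787300 to 35790425) lies within Vps13b, which encodes a lipid transfer protein of the Golgi. It had 0.294, 0.465 and 0.390 CPM in the HFD libraries and 1.03, 1.45 and 1.71 CPM in the HTG libraries. The groups were well apart, though the HFD values were low, beside a floor of 0.167 to 0.180 CPM in those libraries. The log2 fold change was 1.86 (SE 0.43, adjusted p = 0.0616, edgeR's quasi-likelihood test), while Vps13b fell from 27.6 ± 3.98 to 18.2 ± 1.80 CPM (SD, n = 3 each), a log2 fold change of -0.60. The log2 ratio of 9130002K18Rik to Vps13b was -6.39, -5.69 and -6.32 in HFD libraries 1, 2 and 3 against -4.26, -3.48 and -3.41 in HTG libraries 1, 2 and 3.

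Gm42732, inside Ociad1, rose from 1.57 ± 0.310 to 3.65 ± 0.957 CPM (SD, n = 3 each), and Gm42892, inside Palmd, the gene of palmdelphin, rose from 0.817 ± 0.221 to 1.98 ± 0.498 CPM (SD, n = 3 each). Their log2 fold changes were 1.22 and 1.28, beside -0.27 (adjusted p = 0.382) for Ociad1 and -0.12 (adjusted p = 0.742) for Palmd in edgeR's quasi-likelihood test.
The 33 TEC genes that rose had a median log2 fold change of 1.32 and a median span of 2622 bp, and 26 of them changed by more than 1 on that scale. Of all genes higher at that p, 917 of 2275 did so, and 710 of 2068 of those averaging 50 counts or more. The median SE was 0.46 over the 138 TEC genes and 0.25 over all genes averaging 50 counts or more. A TEC gene thus tended to need a larger change to pass, so these sizes follow in part from the selection by p. In 30 of the 33 the CPM of the groups did not overlap, which follows in large part from how they were picked: it held for 91.1% of all genes higher at that p.

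The 5 TEC genes that fell were of mixed place and size. Gm45819 (ENSMUSG00000109904, chromosome 7, 109719197 to 109720947, plus strand) overlaps no coding gene. It had 1.31, 0.915 and 1.61 CPM in the HFD libraries and 0.231, 0.552 and 0.171 CPM in the HTG libraries, with HTG library 3 under its floor. On the log2 scale the change was -1.98 (SE 0.56, adjusted p = 0.0865, edgeR's quasi-likelihood test). Gm47528 (ENSMUSG00000111282, chromosome 9, 46151139 to 46153330, minus strand) overlaps in part Apoa4, the gene of apolipoprotein A-IV, on the opposite strand. It had 1.78, 4.12 and 6.20 CPM in the HFD libraries and 0.847, 1.83 and 0.704 CPM in the HTG libraries, and HFD library 1 lay just below HTG library 2, so the groups overlapped. The difference on the log2 scale was -1.82 (SE 0.54, adjusted p = 0.0946, edgeR's quasi-likelihood test). Apoa4 fell too, from 968 ± 91.1 to 460 ± 75.1 CPM (SD, n = 3 each), and Gm47528 was at 0.299% of its mean FPKM.

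The other TEC genes that fell changed less. Gm44250 (ENSMUSG00000107881, chromosome 6, 5216258 to 5220486, minus strand), the most abundant TEC gene, starts 366 bp after the end of Pon3, which encodes paraoxonase 3, a liver lactonase. HFD libraries 1, 2 and 3 held 4901, 6217 and 4551 counts of it, and HTG libraries 1, 2 and 3 held 4755, 3572 and 2021. On the scaled values every HTG library was below every HFD library, at 76.2 ± 15.4 and 46.9 ± 12.7 CPM (SD, n = 3 each). The log2 fold change was -0.70 (SE 0.24, adjusted p = 0.126, edgeR's quasi-likelihood test), and the unadjusted p was over 0.05 without HFD library 2, without HTG library 2 or without HTG library 3. Pon3, named here after its values were seen, fell from 58.7 ± 5.56 to 36.5 ± 5.85 CPM (SD, n = 3 each). Its log2 fold change was -0.69, and the mean FPKM of Gm44250 was 103% of that of Pon3, so the neighbours were close in level and in fitted change. The log2 ratio between them differed by -0.02 between the groups.

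Gm49759, inside Pkm, the pyruvate kinase gene, and Gm37824, inside C1ql3 on the opposite strand, were also named after their values were seen. Gm49759 fell from 3.94 ± 1.04 to 2.10 ± 0.198 CPM (SD, n = 3 each), a log2 fold change of -0.90, and Pkm fell with it, with -1.40. Gm37824 fell from 2.53 ± 0.453 to 1.48 ± 0.151 CPM (SD, n = 3 each), a log2 fold change of -0.78. It starts 910 bp after the end of Pter. C1ql3 itself was under the floor in every HTG library and at 0.195 to 0.459 CPM in the HFD libraries.

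**Figure D3:**
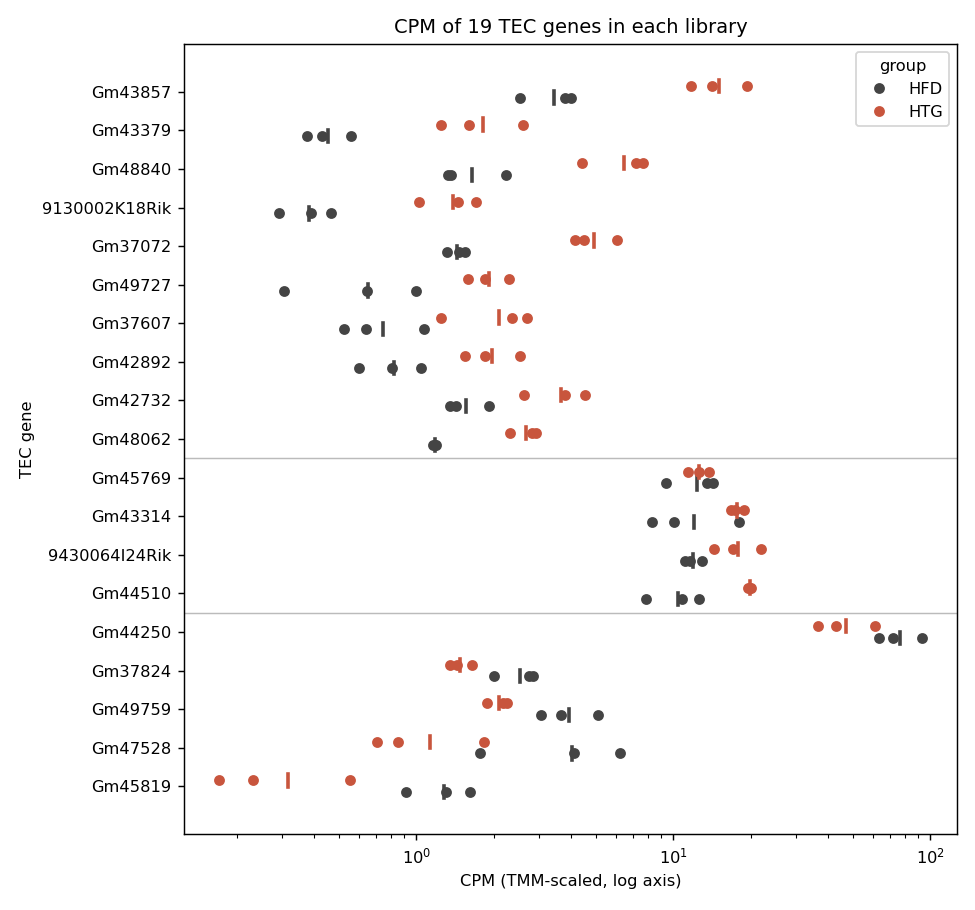
CPM (log axis) of 19 TEC genes in each library; dark points are the 3 HFD and red points the 3 HTG libraries, and vertical ticks are group means. The top 10 are those with the smallest p among genes with a log2 fold change over 1, the middle 4 are among the 5 most abundant, and the bottom 5 are those that fell, where Gm47528 is the only one whose groups overlap.

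Of the 4 next most abundant TEC genes after Gm44250, 2 rose and none fell. Gm44510 (chromosome 7, 55662696 to 55667227, minus strand), inside Nipa1, a magnesium transporter gene, had 10.8, 12.6 and 7.82 CPM in the HFD libraries and 19.6, 20.0 and 20.0 CPM in the HTG libraries. The HTG values were almost identical and all above the HFD values. The log2 change was 0.93 (SE 0.20, adjusted p = 0.0605, edgeR's quasi-likelihood test). It was more abundant than its host, at 651% of the FPKM of Nipa1, which had 1.83 ± 1.09 and 1.40 ± 0.592 CPM (SD, n = 3 each).

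9430064I24Rik, which overlaps Hsd3b7, a gene of bile acid synthesis, on the opposite strand, rose from 11.9 ± 0.916 to 17.8 ± 3.84 CPM (SD, n = 3 each), with a log2 fold change of 0.58. Its unadjusted p was over 0.05 without HTG library 1 (log2 fold change 0.36), without HFD library 1 and with limma on FPKM. Hsd3b7 had a log2 fold change of 0.29 (adjusted p = 0.439, edgeR's quasi-likelihood test). Gm43314, inside Cth, which encodes cystathionine gamma-lyase, had 10.1, 18.0 and 8.24 CPM in the HFD libraries and 16.8, 17.3 and 18.9 CPM in the HTG libraries. HFD library 2 lay within the HTG range, and the log2 fold change of 0.55 had an adjusted p of 0.273 (edgeR's quasi-likelihood test). Without that library it was 0.94, with an unadjusted p under 0.05. Cth fell from 502 ± 143 to 197 ± 78.5 CPM (SD, n = 3 each), and the log2 ratio of Gm43314 to Cth was between -5.62 and -5.17 in the HFD libraries and between -4.09 and -3.04 in the HTG libraries. Gm45769, which overlaps Smim10l1 in part on the same strand, had 12.4 ± 2.66 and 12.6 ± 1.16 CPM (SD, n = 3 each). Its log2 fold change was 0.02, and its sign changed with the scaling.

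At the threshold itself, Gm49410, Gm44829 and Gm42929 had means of 50, 51.0 and 51.3 counts, and Gm37249, Gm28719 and 5830462I19Rik just missed it with 48.3, 48.8 and 49.3. The log2 fold changes were 1.92, 1.06 and 2.00 for the former and 0.997, 1.36 and -0.28 for the latter. Near 50 counts the values of single libraries rest on low counts. Gm49410, for example, had HFD counts of 29, 16 and 16 and HTG counts of 28, 132 and 79, so HTG library 1 lay within the range of the HFD libraries. Of the 34 TEC genes with the fewest counts 4 rose (11.8%) and 1 fell (2.94%). Of the 35 with the most counts 13 rose (37.1%) and 3 fell (8.57%). Over all genes averaging 50 counts or more the shares were 14.4% and 14.8%. The share that rose among those with the fewest counts was thus not above that background. The median log2 fold changes were 0.32 for the fewest and 0.54 for the most counts.

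By place, the median log2 fold change was above that of all genes tested in each class. It was 0.39 in the 45 TEC genes inside a same-strand coding gene (7 rose, 1 fell), 0.32 in the 24 inside an opposite-strand one (5 and 1), 0.76 in the 23 with a partial overlap (9 and 1), 0.50 in the 10 just after a coding gene (3 and 1) and 0.73 in the 36 elsewhere (9 and 1). The 35 that overlap no listed gene at all, so that no other listed gene shares their span, had a median of 0.73, with 9 higher and 2 lower. Leaving out the 54 that overlap a listed gene on the same strand left 22 higher and 4 lower of 84, a choice made after the data were examined. The 24 whose start is near that of an opposite coding gene had a median of 0.70, with 8 higher and 1 lower. Beside the 14.4% higher and 14.8% lower of all genes averaging 50 counts or more, 15.6% of those inside a same-strand gene rose, a share close to that background, and 20.8%, 39.1%, 30.0% and 25% of the other classes in the order above. No difference between the places was tested.

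**Figure D4:**
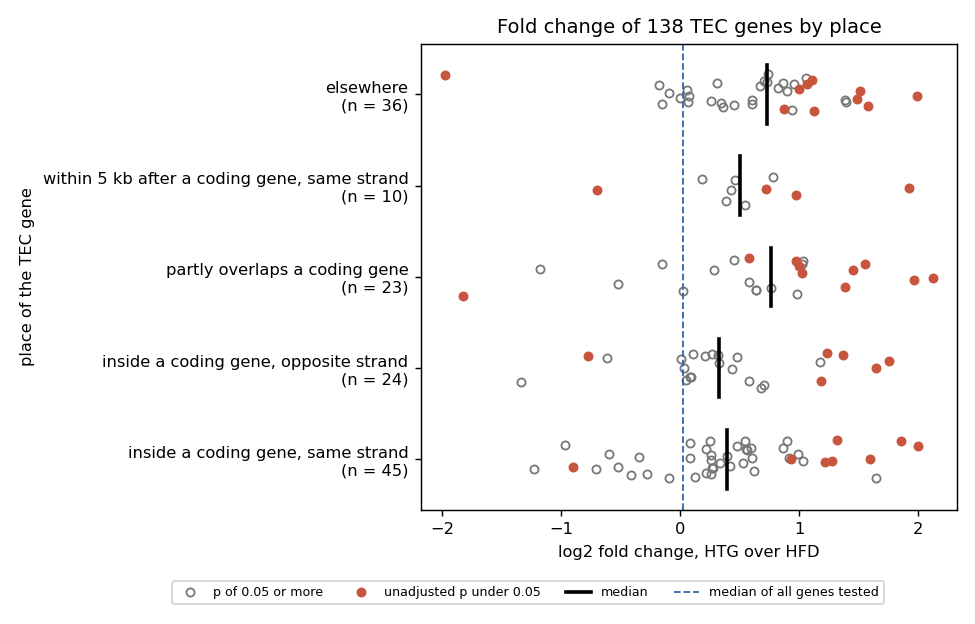
Log2 fold change (HTG over HFD) of each of the 138 TEC genes, grouped by place relative to coding genes. Filled red points have an unadjusted p under 0.05, black bars are the medians, from 0.32 to 0.76, and the dashed line is the median of all genes tested, 0.03. All 5 medians lie to the right of that line, and each place holds 1 red point on the left.

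The change did not follow the span in order. In 4 groups of 34 or 35 TEC genes, from the shortest to the longest, the median log2 fold changes were 0.66, 0.22, 0.56 and 0.73. In that order 11, 2, 11 and 9 genes rose (32.4%, 5.71%, 32.4% and 25.7%), and 0, 2, 0 and 3 fell. Over all genes averaging 50 counts or more, 14.4% were higher and 14.8% lower. The group with a median of 0.22 thus had as many falls as rises, and a share of rises below that background. The longest, 9330162G02Rik (30942 bp, chromosome 7, 58873595 to 58904536, minus strand), overlaps Ube3a, the imprinted ubiquitin ligase gene, on the opposite strand. It had 0.778, 1.33 and 0.473 CPM in the HFD libraries and 1.14, 2.25 and 1.71 CPM in the HTG libraries, so the groups overlapped, and its log2 fold change was 0.98 (adjusted p = 0.246, edgeR's quasi-likelihood test). Its mean FPKM was 0.030 in HFD and 0.050 in HTG. TEC genes close to each other did not always move alike. Gm43858 and Gm43857, 3125 bp apart on opposite strands, had log2 fold changes of 0.86 and 2.13, and Gm37962 and Gm37621, 863 bp apart on the same strand, 0.09 and 0.70.

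For the 45 TEC genes inside a same-strand coding gene, the change of the host was compared with that of the TEC gene. Their median log2 fold change was 0.39 and that of the 45 hosts -0.26, and 6 hosts rose (13.3%) and 13 fell (28.9%), beside 12.7% and 15.9% of coding genes averaging 50 counts or more, so the share of hosts that rose was close to that background. The fitted value of the TEC gene was above that of its host in 37 of 45 pairs, with a median difference of 0.52 (from -1.81 to 2.68), and in 23 pairs the TEC gene was above 0 and its host below. Without any pairing, the median was 0.56 over all 138 TEC genes and -0.04 over coding genes averaging 50 counts or more. The difference within pairs thus cannot be told apart from that between the classes. Across the 45 pairs, which share the same 6 libraries, Pearson's r was 0.13 and Spearman's rho 0.05. The TEC gene had a median of 11.6% of the FPKM of its host (0.676% to 651%). Without HFD library 3 the median difference was 0.83.

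**Figure D5:**
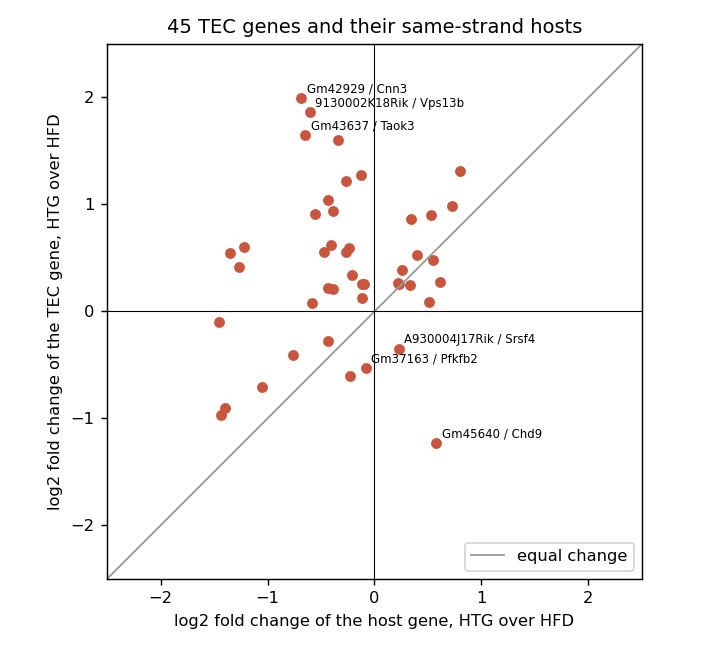
Log2 fold change (HTG over HFD) of 45 TEC genes against that of the coding gene that holds them on the same strand; each point is a pair and the diagonal marks equal change. In 37 pairs the point is above the diagonal, and the labelled pairs are the 3 farthest above and the 3 farthest below it.

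The largest positive differences were in Gm42929 inside Cnn3, 9130002K18Rik inside Vps13b and Gm43637 inside Taok3. Gm42929 had 0.220, 0.510 and 0.111 CPM in the HFD libraries and 0.680, 1.41 and 1.28 CPM in the HTG libraries, with HFD library 3 under its floor. On the log2 scale it rose by 2.00, and Cnn3, which encodes the actin-binding protein calponin 3, fell from 129 ± 3.92 to 80.2 ± 8.17 CPM (SD, n = 3 each). Gm43637 had 0.364 ± 0.285 and 1.14 ± 0.362 CPM (SD, n = 3 each), a log2 fold change of 1.65 (adjusted p = 0.220, edgeR's quasi-likelihood test), and the kinase gene Taok3 fell with -0.65. These pairs were picked for their difference, so it was not tested.

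The largest negative differences came from TEC genes that did not pass the test. Gm45640, inside the chromatin remodeller gene Chd9, had a log2 fold change of -1.23 (adjusted p = 0.382) and 1.59 CPM in HFD library 3 but 0.0427 CPM, under the floor, in HTG library 3, where Chd9 was at its highest, 622 CPM. A930004J17Rik, inside the splicing factor gene Srsf4, had -0.35 (adjusted p = 0.690), and Gm37163, inside Pfkfb2, a regulator of glycolysis, had -0.53 (adjusted p = 0.389, all from edgeR's quasi-likelihood test). The ratios to the hosts overlapped between the groups in these 3 pairs.

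For the 24 TEC genes inside an opposite-strand coding gene, the median difference from the host was 0.42, with r of 0.45 between the log2 fold changes, and for 20 pairs with a partly overlapped gene on the opposite strand and both genes tested it was 0.86, with r of 0.52. These are descriptions over pairs that share libraries and, where reads overlap, reads. Here too the difference within pairs cannot be told apart from that between the classes. An example of a partly overlapped pair is Particl, an RNA from the promoter of Mat2a on the opposite strand, named after its values were seen. It had 0.827 ± 0.312 and 1.28 ± 0.494 CPM (SD, n = 3 each), a log2 fold change of 0.64, while Mat2a, the methionine adenosyltransferase gene, fell from 100 ± 12.7 to 65.6 ± 1.45 CPM (SD, n = 3 each).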

How the data were processed

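Liver RNA of 3 HFD and 3 HTG libraries was analysed, grouped by title. Oligo(dT)-selected, strand-marked libraries are described in the study's methods, and the labels name an NEBNext Ultra kit. For each gene and library the authors deposited an estimated count, a whole number that is not normalised, and an FPKM value, scaled by length and library total. The submitters' processing notes name HISAT2, StringTie, SAMtools and mRatBN7.2, without roles or versions, while the gene rows are mouse; strand use in counting is not given in the sources used here. Columns held no values of other samples.

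The TEC genes, gene lists and comparisons were chosen with earlier results of these data known. Estimated counts were tested by edgeR 4.0.16 (glmQLFit, glmQLFTest, TMM scaling, filterByExpr) in R 4.3.3 over the whole table, with the group as the only term and Benjamini-Hochberg adjustment over all genes tested. The p-values measure the spread between these libraries. A coding gene was any row with protein_coding among its transcript types; with that as the only type, 4 of the 45 same-strand hosts remained. Place was read from the listed spans, not exons. Genes were named if they had an adjusted p under 0.05, were among up to 10 per direction by p with a log2 fold change beyond 1 either way and an unadjusted p under 0.05, were the 5 most abundant, the 3 on each side of the threshold, the longest or shortest, or the 3 farthest from a same-strand host in each direction, with their hosts. Mpzl3, Ube2d3, Pter, Usp33, Apoa4, Mpzl2, Cfap298, Hsd3b7 and Smim10l1, which overlap or adjoin named genes, were added after their values were seen, as were the pairs of TEC genes close to each other. A further 27 rows with TEC among several types were left out. The scripts were tested on simulated counts.

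The alternatives were DESeq2 1.42.0, its size factors, upper-quartile scaling, no filter, a minimum of 10 counts in every library, counts divided by 4, limma 3.58.1 on log2(FPKM + 0.1), a block by replicate number, leaving out each library, means of at least 25 or 100 counts, other places, and the 5 largest genes left out. Scaling by library totals and leaving out all same-strand overlaps were added after the data were examined. No mouse genome was used here, so no sequence is printed.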

Additional observations from a re-analysis of the deposited data

How the results depend on the processing

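Across the fits with other scalings, tools and filters, the number higher at an unadjusted p under 0.05 was between 27 and 37 and the number lower between 4 and 6. Over all genes tested in these fits, 8.4% to 14.8% were higher and 8.75% to 14.1% lower. The median log2 fold change of the TEC genes was between 0.43 and 0.59. Leaving out 1 library gave 21 to 38 higher and 3 to 5 lower, where 8.07% to 11% of all genes tested were higher and 8.09% to 14.8% lower. The groups did not overlap for 51 to 73, but fewer libraries make this easier, and the share over all genes is not given here. The median difference from the same-strand host was 0.43 to 0.83. The count with an adjusted p under 0.05 depended most on the choice: 22 with DESeq2 (which called 13.8% of all genes with an adjusted p), 6 with at least 10 counts in every library (4.43% of all genes), 6 with counts divided by 4 (5.52%), 3 with no filter (0.544%) and 0 to 2 without 1 library (2 without HTG library 1, Gm37072 and Gm43857, where 3.38% of all genes were called), while limma on FPKM gave 0 (0.0111%). The cause was not tested. With a mean of at least 100 counts, 64 genes were left, of which 20 were higher (beside 14.9% of all genes with that mean), 25 did not overlap and 18 lay inside a same-strand coding gene, and at a mean of at least 25 counts 73 of 234 lay inside one; these counts follow from the number of genes. Counting either strand, 69 of the 138 lay inside a coding gene, which follows from the wider definition. Without the 5 largest genes the summed level differed by 0.54 on the log2 scale, in place of 0.34. Gm45769 changed sign with DESeq2 size factors (-0.00123) and DESeq2 (-0.000963), and was between -0.15 and 0.14 without 1 library. A930004J17Rik was between -0.77 and 0.14 without 1 library, the latter without HFD library 3. The replicate number as a block gave 27 higher and 4 lower, beside 10.4% and 10.5% of all genes tested, and 0 with an adjusted p under 0.05. Deviations from the group mean had correlations of -0.0779, -0.0731 and 0.1015 between libraries with the same number. Between libraries with different numbers they were -0.1209 to 0.1846, so those with the same number were not more alike by this measure. With 3 libraries in each group this cannot exclude that the numbers pair the samples. Genes near 50 counts are limited by counting error.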
